A study of Mus musculus with 12 samples.

Results

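The lecticans are a family of chondroitin sulfate proteoglycans of the extracellular matrix: aggrecan (*Acan*), brevican (*Bcan*), neurocan (*Ncan*) and versican (*Vcan*). The expression of their 4 genes was examined in cultured mouse neural progenitor cells (mNPCs), with 2 link protein genes (*Hapln1* and *Hapln4*), 2 tenascin genes (*Tnr* and *Tnc*) and 2 genes of matrix proteases (*Adamts4* and *Adamts5*). All 10 genes were among the 18911 genes measured. *Acan* was selected on its measured fall in one genotype, so its levels are given as a description in the comparisons that use that choice, and the other 9 genes were taken as its family, partners and proteases.

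RNA-Seq was performed on polyadenylated RNA of mNPCs grown from the hippocampus of newborn (P0) pups, in 12 libraries with 3 for each of 4 genotypes. *Kmt2a+/+* cells were wild type. *Kmt2a+/LSL* cells carried, on one allele of *Kmt2a*, a lox-STOP-lox (LSL) cassette that cuts transcription short within the first intron. The *nes-cre+/-* cells had no cassette and a nestin-Cre transgene, and *nes-cre+/-Kmt2a+/LSL* cells had both the cassette and the transgene, which removes the cassette in cells where the nestin promoter is or was active. The mice were of C57BL/6J background, both sexes were used in the study, and all cells were expanded with FGF-2, EGF and heparin on Matrigel and then on laminin. The sources used here do not say whether the 3 libraries of a genotype came from separate pups or litters, so p-values measure the spread between these cultures. In bulk RNA, removal of the cassette in some cells and not in others would not show, and fewer cells of a type cannot be told apart from less RNA per cell.

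Lecticans bind hyaluronan through one end and tenascins through the other. Link proteins lock the binding to hyaluronan, tenascin-R cross-links the lecticans, and the ADAMTS proteases known as aggrecanases cut lecticans and so remodel the matrix. In the mature hippocampus and cortex these proteins build the perineuronal net, a dense matrix shell around the body of certain neurons, above all inhibitory interneurons that express parvalbumin, and aggrecan is needed for its assembly. Neurocan, brevican, versican and tenascin-C are also part of the looser matrix of the developing brain, where progenitors and glia make them.

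The promoters of the 4 lectican genes are shown because KMT2A, the histone H3K4 methyltransferase lowered in *Kmt2a+/LSL* cells, holds a CXXC domain that binds CG dinucleotides without methylation, and because the 4 promoters differ in their number of CGs. Each sequence runs 5′ to 3′ on the gene's strand, from 250 bases before to 50 bases after the RefSeq start (GRCm38.p6), with CG in capitals. The motif searched was CG, which is its own reverse complement.
Acan: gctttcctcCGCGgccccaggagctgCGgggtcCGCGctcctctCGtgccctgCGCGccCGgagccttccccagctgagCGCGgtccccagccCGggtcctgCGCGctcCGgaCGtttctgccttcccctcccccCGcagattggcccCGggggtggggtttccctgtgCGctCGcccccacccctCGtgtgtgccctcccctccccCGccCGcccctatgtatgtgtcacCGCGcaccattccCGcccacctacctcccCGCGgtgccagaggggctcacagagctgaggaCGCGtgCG
Bcan: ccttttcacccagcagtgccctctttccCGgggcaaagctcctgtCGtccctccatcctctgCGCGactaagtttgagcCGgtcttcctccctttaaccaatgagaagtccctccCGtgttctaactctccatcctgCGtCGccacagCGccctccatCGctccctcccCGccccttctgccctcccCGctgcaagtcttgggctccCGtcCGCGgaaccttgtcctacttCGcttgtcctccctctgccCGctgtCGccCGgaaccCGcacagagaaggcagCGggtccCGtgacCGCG
Vcan: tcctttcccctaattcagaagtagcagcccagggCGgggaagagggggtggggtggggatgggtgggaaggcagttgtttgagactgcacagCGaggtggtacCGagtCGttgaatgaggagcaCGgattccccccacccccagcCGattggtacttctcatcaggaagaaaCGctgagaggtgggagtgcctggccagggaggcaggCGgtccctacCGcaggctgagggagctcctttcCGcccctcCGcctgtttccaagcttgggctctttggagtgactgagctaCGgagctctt
Ncan: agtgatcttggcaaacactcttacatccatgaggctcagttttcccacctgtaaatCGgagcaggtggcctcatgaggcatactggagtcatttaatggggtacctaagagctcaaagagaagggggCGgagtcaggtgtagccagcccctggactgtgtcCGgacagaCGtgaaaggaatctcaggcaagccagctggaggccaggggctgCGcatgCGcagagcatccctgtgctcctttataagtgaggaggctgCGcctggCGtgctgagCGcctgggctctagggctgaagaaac
The *Acan* window lies at chr7:79052976-79053275 on the plus strand and holds 31 CGs, more than 89.4% of the 32851 mouse promoters in the same RefSeq table. The *Bcan* window (chr3:88000307-88000606, minus strand) holds 24 and exceeds 80.0% of promoters, the *Vcan* window (chr13:89742463-89742762, minus strand) holds 12 and exceeds 60.4%, and the *Ncan* window (chr8:70120795-70121094, minus strand) holds 9 and exceeds 54.2%. Of the 4 lecticans, *Acan*, the least abundant in these cells, had the promoter with the most CGs. *Ncan*, the most abundant per kilobase of the longest coding transcript, had the one with the fewest. With the median transcript length *Bcan* was the most abundant, and for 4 genes this order is a description. Among all promoters the median was 7 CGs, and 94.6% held at least one. Of the other members, *Hapln1* and *Tnr* held 3 each in their windows, and *Tnc*, with 2 annotated starts, held 10 and 16. *Hapln4*, *Adamts4* and *Adamts5* had no entry in the table.

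Each lectican gene lies beside a gene of a link protein, and *Acan* lies tail to tail with *Hapln3* on chromosome 7, with 2 bases between the gene ends. *Ncan* and *Hapln4* on chromosome 8 also face each other with their ends, 2222 bases apart. *Vcan* and *Hapln1* on chromosome 13 do so over 43.7 kb, and *Bcan* and *Hapln2* on chromosome 3 lie in the same direction over 21.5 kb (GRCm38, GENCODE M21).

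The libraries held 18280008 to 28596919 estimated read counts. *Kmt2a*, the gene with the cassette, stood at 281 to 300.3 CPM (counts-per-million of the scaled library total) in *Kmt2a+/+*, 166 to 167 in *Kmt2a+/LSL*, 283 to 310.0 in *nes-cre+/-* and 259 to 284 in *nes-cre+/-Kmt2a+/LSL*, so its low level fell to the libraries so labelled. Progenitor markers were high, with *Nes* at 316 to 758 and *Sox2* at 226 to 387 CPM over the 12 libraries, and the 5 microglia markers measured of 6 listed summed to at most 0.866 CPM. The 10 neuron markers summed to 1023 to 1924 CPM, most of it *Map2* (980 to 1874 CPM), whereas *Pvalb*, the gene of parvalbumin, stood at 0.0456 to 1.01 CPM and the glutamatergic neuron gene *Slc17a7* at 0 to 0.299 CPM. The 7 astrocyte markers summed to 3111 to 5943 CPM. Of the 6 oligodendrocyte precursor markers, *Olig1* stood at 705 to 4144 and *Olig2* at 395 to 1116 CPM. The others were lower, with *Cspg4* at 23.6 to 226, *Pdgfra* at 17.6 to 81.5, *Gpr17* at 1.42 to 10.8 and *Sox10* at 0.178 to 10.5 CPM. *Kmt2a+/+* replicate 1 stood apart. Its log2 CPM correlated with the other *Kmt2a+/+* libraries at a median Pearson r of 0.903 across genes, against 0.939 to 0.984 for the other 11 libraries within their genotypes, and its weight in the results is given beside those that it moves most.

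Within the matrix genes, levels spanned a wide range, and aggrecan, the net's core proteoglycan, stood at the bottom. Per kilobase of the longest coding transcript, on the CPM scale (RPKM), the mean of the 12 libraries was 506 for *Ncan*, 325 for *Bcan*, 20.7 for *Tnc*, 16.2 for *Vcan*, 12.5 for *Adamts4*, 1.75 for *Hapln4*, 0.570 for *Tnr*, 0.410 for *Adamts5*, 0.347 for *Hapln1* and 0.0625 for *Acan*. Among 16679 genes ranked in this way, *Ncan* took rank 72 and *Bcan* rank 133, and *Acan* took rank 14439. At 3 steps of this order neighbours did not overlap, with *Bcan* above *Tnc*, *Adamts4* above *Hapln4* and *Hapln1* above *Acan* in 12 of 12 libraries. The ranges of the other neighbours overlapped, and *Tnr*, which fell to 0 in some libraries, exceeded *Adamts5* in 7 of 12. Transcript choice also decides neighbours: with the median length of the coding transcripts in place of the longest, *Bcan* (579 RPKM) passed *Ncan* (506 RPKM), *Vcan* (87.5 RPKM) passed *Tnc* (21.1 RPKM) and *Tnr* (2.64 RPKM) passed *Hapln4* (1.75 RPKM).

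**Figure D1:**
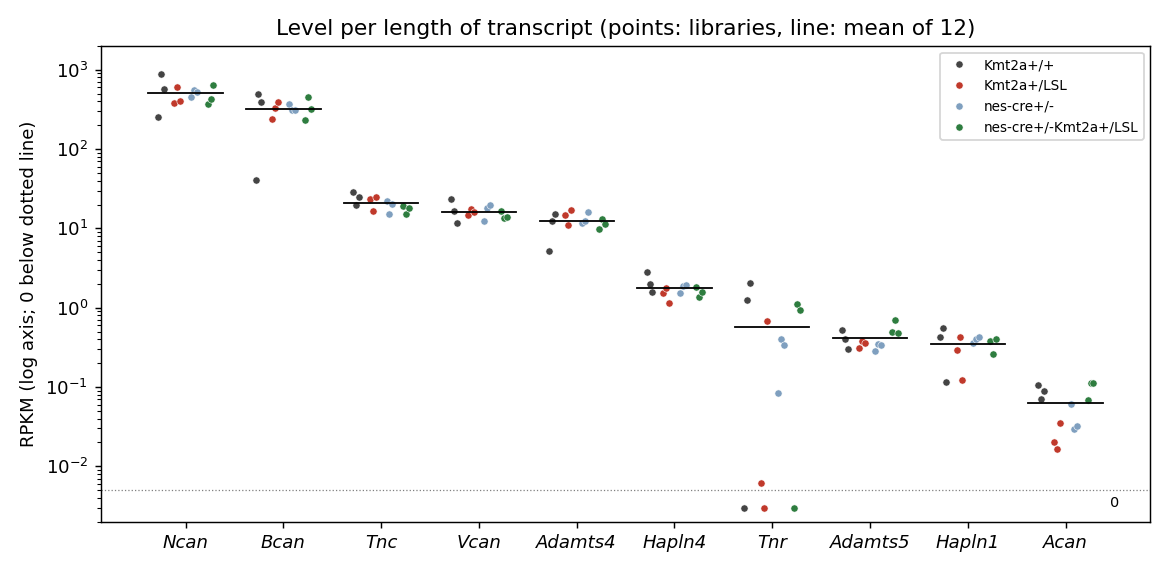
Level of each matrix gene in CPM per kilobase of its longest coding transcript (RPKM, log axis), with one point per library coloured by genotype and a line at the mean of 12 libraries. *Ncan* (mean 506) and *Bcan* (mean 325) lie above the other genes in all 12 libraries, with the lowest *Bcan* value at 40.8 in *Kmt2a+/+* replicate 1, and *Acan* (mean 0.0625) lies lowest apart from *Tnr* values at or near 0; those at 0 are drawn under the dotted line.

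*Acan*, the gene of aggrecan (chr7:79053483-79115099, plus strand), was barely transcribed in mNPCs and was lowest in 2 of the 4 genotypes. Its estimated read counts were 13, 13 and 19 in *Kmt2a+/+* replicates 1 to 3, 4, 3 and 6 in *Kmt2a+/LSL*, 11, 5 and 6 in *nes-cre+/-*, and 10, 22 and 18 in *nes-cre+/-Kmt2a+/LSL*. In CPM the group means were 0.647 ± 0.128, 0.177 ± 0.0722, 0.300 ± 0.128 and 0.714 ± 0.187 in the same order (SD, n = 3 each). The 3 *Kmt2a+/LSL* libraries lay below all *Kmt2a+/+* and *nes-cre+/-Kmt2a+/LSL* libraries, but they overlapped the *nes-cre+/-* libraries. The *nes-cre+/-* libraries, with 2 intact *Kmt2a* alleles and a full *Kmt2a* level, likewise lay below all *Kmt2a+/+* libraries, with 0.447 CPM as their highest and 0.517 as the lowest *Kmt2a+/+* value. The 2 genotypes with the higher *Acan* level overlapped each other.

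**Figure D2:**
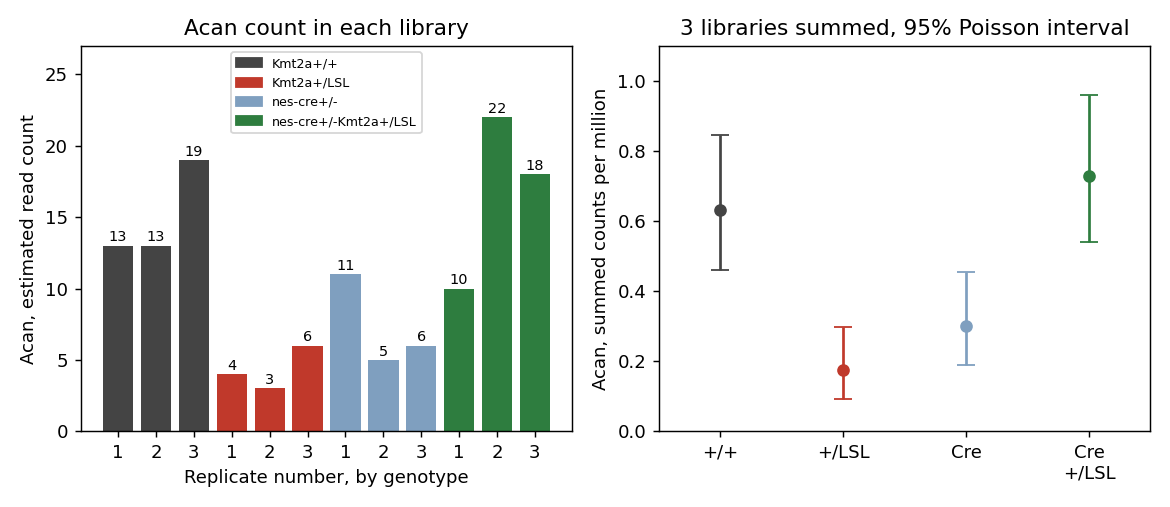
Left, estimated *Acan* read count in each of the 12 libraries (bars, from 0). Right, *Acan* counts of the 3 libraries of a genotype summed, as CPM, with the 95% exact Poisson interval, where Cre stands for *nes-cre+/-*; *Kmt2a+/LSL* (13 counts) and *nes-cre+/-* (22 counts) are the low pair and *Kmt2a+/+* (45 counts) and *nes-cre+/-Kmt2a+/LSL* (50 counts) the high pair.

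At counts this low the counting error is wide, and it was obtained from the sums over the 3 libraries. *Acan* had 45 counts in *Kmt2a+/+*, a level of 0.633 CPM (exact Poisson 95% interval 0.462 to 0.847). It had 13 in *Kmt2a+/LSL*, a level of 0.174 CPM (0.0929 to 0.298), and 22 in *nes-cre+/-*, a level of 0.301 CPM (0.188 to 0.455). In *nes-cre+/-Kmt2a+/LSL* it had 50, a level of 0.728 CPM (0.540 to 0.959). These intervals describe the precision of each level, cover counting error in these libraries and not the spread between cultures, and are no test of the differences on which *Acan* was selected.

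On the log2 scale of the fitted model (edgeR quasi-likelihood), *Acan* differed by −1.86 (SE 0.53) between *Kmt2a+/LSL* and *Kmt2a+/+*, by 2.00 (SE 0.52) from *Kmt2a+/LSL* to *nes-cre+/-Kmt2a+/LSL*, and, in the fit of all 12 libraries, by −1.09 (SE 0.49) between *nes-cre+/-* and *Kmt2a+/+*. No test is given for these differences, since *Acan* was selected on the first and the others share its libraries. *Acan* was also picked with the contrast of *nes-cre+/-Kmt2a+/LSL* with *Kmt2a+/LSL*, so its high level in the *nes-cre+/-Kmt2a+/LSL* libraries was part of the choice. The contrast of *nes-cre+/-Kmt2a+/LSL* cells with *nes-cre+/-* cells used no library of the first contrast, but it shares those high libraries. Its spread was estimated from all 12 libraries, and its p-value is no independent support. There *Acan* was higher by 1.24 (SE 0.49) on the log2 scale in the cells that had carried the cassette, with an adjusted p of 1 by edgeR's quasi-likelihood test (unadjusted p = 0.0271). Counts were 11, 5 and 6 against 10, 22 and 18, and the CPM values did not overlap, with 0.447 as the highest *nes-cre+/-* and 0.498 as the lowest *nes-cre+/-Kmt2a+/LSL* value. Leaving out each library in turn moved this difference between 1.05 and 1.64.

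*Hapln3*, the link protein gene whose end meets that of *Acan*, did not follow it. Its counts were 0, 0 and 25 in *Kmt2a+/+*, 12, 4 and 4 in *Kmt2a+/LSL*, 14, 0 and 23 in *nes-cre+/-*, and 0, 6 and 0 in *nes-cre+/-Kmt2a+/LSL*. Groups overlapped in all 4 comparisons, and *Hapln3* had no counts in 5 of the 12 libraries. No 31-base stretch of the *Acan* transcripts occurs in another gene, so its reads could be assigned to it.

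*Ncan*, the gene of neurocan (chr8:70093085-70120873, minus strand), was the most abundant member on the CPM scale in each library. It stood at 1811, 6363 and 4072 CPM in *Kmt2a+/+* replicates 1 to 3, 2774, 4332 and 2870 in *Kmt2a+/LSL*, 3281, 4017 and 3819 in *nes-cre+/-*, and 2641, 3055 and 4625 in *nes-cre+/-Kmt2a+/LSL*. Both the lowest and the highest of the 12 values came from *Kmt2a+/+*, and all genotypes overlapped. The log2 difference between *Kmt2a+/LSL* and *Kmt2a+/+* was −0.30 (SE 0.42), and it was −0.65 (SE 0.30) without *Kmt2a+/+* replicate 1, with an adjusted p of 0.734 by edgeR's quasi-likelihood test.

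*Bcan*, the gene of brevican (chr3:87987531-88000230, minus strand), had the second highest mean on the CPM scale. It stood at 128, 1574 and 1247 CPM in *Kmt2a+/+*, 761, 1030.1 and 1230.4 in *Kmt2a+/LSL*, 1149, 978 and 976 in *nes-cre+/-*, and 732, 1424 and 1001 in *nes-cre+/-Kmt2a+/LSL*. One library stood out, since *Kmt2a+/+* replicate 1 held 11.0 times less *Bcan* than the mean of the other 2 *Kmt2a+/+* libraries, and the other 11 libraries lay within 2.15 times of each other. The log2 difference between *Kmt2a+/LSL* and *Kmt2a+/+* was 0.03 (SE 0.68), and it turned to −0.49 (SE 0.28) without that library, with an adjusted p of 0.734 by edgeR's quasi-likelihood test.

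*Vcan*, the gene of versican (chr13:89655312-89742509, minus strand), was the steadiest lectican. It stood at 294, 203 and 147 CPM in *Kmt2a+/+*, 183, 217 and 199 in *Kmt2a+/LSL*, 155, 226 and 242 in *nes-cre+/-*, and 203, 169.8 and 173 in *nes-cre+/-Kmt2a+/LSL*. All 12 values lay within 2.00 times of each other, the genotypes overlapped, and the log2 difference between *Kmt2a+/LSL* and *Kmt2a+/+* was −0.12 (SE 0.26). Without *Kmt2a+/+* replicate 1, the highest of the 12 values, it turned to 0.19 (SE 0.17). As a share of the summed lectican RPKM, *Ncan* made up a median of 60.8%, *Bcan* 36.9%, *Vcan* 1.91% and *Acan* 0.00615%. Outside *Kmt2a+/+* replicate 1, *Ncan* held 47.6% to 65.9% and *Bcan* 32.7% to 50.8%. In that library the shares were 79.6% for *Ncan*, 12.9% for *Bcan* and 7.48% for *Vcan*.

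The link protein genes were low. *Hapln1* (chr13:89539796-89611652, plus strand), whose product holds lecticans to hyaluronan in cartilage and brain, had counts of 41, 79 and 19 in *Kmt2a+/+*, 44, 60 and 16 in *Kmt2a+/LSL*, 50, 54 and 61 in *nes-cre+/-*, and 44, 40 and 51 in *nes-cre+/-Kmt2a+/LSL*. Its lowest values were those of replicate 3 in each of the genotypes without Cre, and the 12 libraries spanned 4.82 times in CPM. *Hapln4* (chr8:70083457-70090862, plus strand), whose product is the brain link protein that pairs with brevican, had counts of 172, 182 and 167 in *Kmt2a+/+*, 149, 161 and 98 in *Kmt2a+/LSL*, 139, 160 and 176 in *nes-cre+/-*, and 135, 133 and 125 in *nes-cre+/-Kmt2a+/LSL*. Its mean was 7.73 ± 2.29 CPM in *Kmt2a+/+* and 5.45 ± 1.16 CPM in *Kmt2a+/LSL* (SD, n = 3 each), with libraries that overlapped. *Hapln2*, which lies beside *Bcan* and belongs to myelinated fibre tracts, had 0 to 11 counts per library.

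The 2 tenascins behaved unlike each other. *Tnr* (chr1:159523769-159931729, plus strand), the gene of the tenascin that cross-links lecticans in perineuronal nets, had counts of 0, 379 and 737 in *Kmt2a+/+*, 2, 0 and 190 in *Kmt2a+/LSL*, 25, 114 and 105 in *nes-cre+/-*, and 0, 359 and 248 in *nes-cre+/-Kmt2a+/LSL*. *Tnr* was thus without a count in one library of each of 3 genotypes and reached 190 to 737 in another of the same genotype. A count of 0 allows up to 0.178 CPM in *Kmt2a+/+* replicate 1, where the 3-count limit was highest of the 12 libraries, far under the 25.3 CPM of *Kmt2a+/+* replicate 3. The log2 difference was about as large as its error, at −2.31 (SE 2.13) between *Kmt2a+/LSL* and *Kmt2a+/+* (adjusted p = 1, edgeR's quasi-likelihood test).

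*Tnc* (chr4:63959785-64047015, minus strand), the gene of tenascin-C, a matrix protein of neural stem cell niches, was expressed in every library. It stood at 205, 140.3 and 179 CPM in *Kmt2a+/+*, 166, 118 and 177 in *Kmt2a+/LSL*, 157, 108 and 144 in *nes-cre+/-*, and 135, 107 and 127 in *nes-cre+/-Kmt2a+/LSL*. These 12 values lay within 1.91 times of each other and replicate 2 held the lowest value in all 4 genotypes. The group means ran from 175 ± 32.5 in *Kmt2a+/+* to 123 ± 14.2 in *nes-cre+/-Kmt2a+/LSL* (CPM, SD, n = 3 each). These 2 genotypes did not overlap for *Tnc*, alone among the 9 members other than *Acan*, where 1.25% of all genes lay wholly lower and 2.38% wholly higher in *nes-cre+/-Kmt2a+/LSL*. In the 4 comparisons tested the genotypes overlapped for *Tnc*.

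The 2 aggrecanase genes differed in level. *Adamts4* (chr1:171250421-171260637, plus strand), which encodes aggrecanase-1, stood at 22.6, 54.3 and 67.6 CPM in *Kmt2a+/+*, 64.3, 49.0 and 75.8 in *Kmt2a+/LSL*, 51.1, 54.3 and 69.8 in *nes-cre+/-*, and 43.4, 57.9 and 50.2 in *nes-cre+/-Kmt2a+/LSL*. Its low value was again that of *Kmt2a+/+* replicate 1, 2.70 times under the mean of the other 2 libraries, and the genotypes overlapped. *Adamts5* (chr16:85856173-85901828, minus strand), which encodes aggrecanase-2, had counts of 95, 109 and 96 in *Kmt2a+/+*, 89, 101 and 90 in *Kmt2a+/LSL*, 75, 88 and 92 in *nes-cre+/-*, and 108, 199 and 114 in *nes-cre+/-Kmt2a+/LSL*.

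*Adamts5* was highest in *nes-cre+/-Kmt2a+/LSL*, with 6.01 ± 1.25 CPM there against 4.43 ± 1.18 in *Kmt2a+/+*, 3.49 ± 0.385 in *nes-cre+/-* and 3.77 ± 0.394 in *Kmt2a+/LSL* (SD, n = 3 each). All 3 of its *nes-cre+/-Kmt2a+/LSL* libraries lay above all *Kmt2a+/LSL* and all *nes-cre+/-* libraries, while they overlapped *Kmt2a+/+*, whose replicate 1 was at 5.65 CPM. The log2 difference was 0.78 (SE 0.27) against *nes-cre+/-*, with an adjusted p of 1 by edgeR's quasi-likelihood test (unadjusted p = 0.0143). Against *Kmt2a+/LSL* it was 0.67 (SE 0.31), with an adjusted p of 1 by the same edgeR test (unadjusted p = 0.0554). The log2 difference between cells with and without the cassette allele was −0.24 (SE 0.31) in the absence of nestin-Cre (fit of 9 libraries). It was −0.01 (SE 0.27) when *Kmt2a+/+* replicate 1 was left out. In the presence of nestin-Cre it was 0.78. In the fit of all 12 libraries the differences with and without nestin-Cre differed by 1.01 (SE 0.38), with an adjusted p of 1.00 in the edgeR interaction test (unadjusted p = 0.0224). Replicate 2 of *nes-cre+/-Kmt2a+/LSL* gave the highest value, 7.45 CPM, and the lowest difference over the left-out libraries was 0.60 against *nes-cre+/-* and 0.49 against *Kmt2a+/LSL*.

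**Figure D3:**
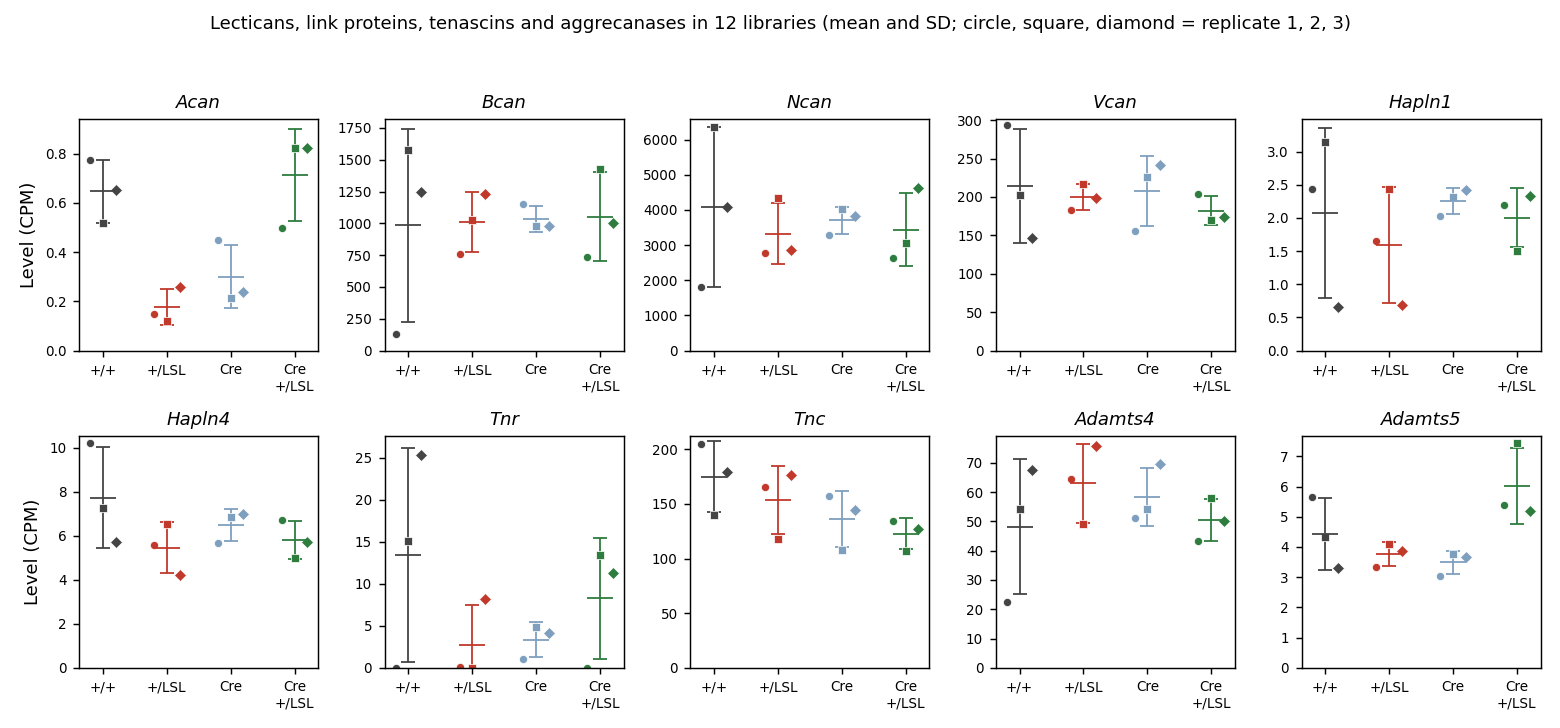
Level of each matrix gene in CPM (linear axes from 0), with the 3 libraries of a genotype as circle, square and diamond for replicates 1, 2 and 3, and bars for mean and SD; Cre stands for *nes-cre+/-*. *Acan* is low in *Kmt2a+/LSL* (0.122 to 0.259) and *nes-cre+/-* (0.214 to 0.447), *Adamts5* is highest in *nes-cre+/-Kmt2a+/LSL* (5.20 to 7.45), and *Bcan*, *Tnr* and *Adamts4* are lowest or at 0 in replicate 1 of *Kmt2a+/+*.

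The comparison of *Kmt2a+/LSL* with *Kmt2a+/+* asks what one truncated *Kmt2a* allele does to expression. Of the 9 members other than *Acan*, none passed an adjusted p of 0.05 by edgeR's quasi-likelihood test, DESeq2 or limma-voom, and none had an unadjusted p under 0.05 by any of the 3. Among all 16655 genes tested, 0% passed the adjusted threshold by edgeR, against 7 genes by DESeq2 and 0 by limma-voom, and 1.15% had an unadjusted p under 0.05. Of the 9, 7 had a negative and 2 a positive log2 difference, with a median of −0.24 beside −0.01 for all genes, and the range ran from −2.31 for *Tnr* to 0.38 for *Adamts4*. Without *Kmt2a+/+* replicate 1 the median was −0.23, the range ran from −2.90 for *Tnr* to 0.19 for *Vcan*, and *Adamts4* stood at 0.05. None of the 9 had libraries that did not overlap, where 1.77% of all genes did with lower and 2.29% with higher values in *Kmt2a+/LSL*. *Acan*, selected on this contrast, was among the lower ones. With *Kmt2a+/+* replicate 1 left out, *Bcan* and *Tnr* lay wholly lower in *Kmt2a+/LSL*, as did 14.2% of all genes, and none of the 9 lay wholly higher, as did 15.1%.

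The setting of *nes-cre+/-Kmt2a+/LSL* libraries against those of *Kmt2a+/LSL* is the rescue comparison. The 2 genotypes differ in removal of the cassette in the neural lineage and in the nestin-Cre transgene itself, which this comparison cannot tell apart. It shares the *Kmt2a+/LSL* libraries with the first. None of the 9 members passed by edgeR's quasi-likelihood test, DESeq2 or limma-voom, beside 0% of all genes by edgeR. At an unadjusted p under 0.05, edgeR found none, and DESeq2 and limma-voom found 1 each, beside 1.1% of all genes by edgeR. *Adamts5* was the one of the 9 whose libraries did not overlap, with higher values, as in 3.55% of all genes, and none lay wholly lower, as in 3.58%. The log2 differences of the 9 ran from −0.32 for *Tnc* to 1.60 (SE 2.09) for *Tnr*, whose value lay between 1.01 and 7.55 over the left-out libraries. Of the 7 astrocyte markers, 6 had a negative log2 difference in this comparison and 3 lay wholly lower in *nes-cre+/-Kmt2a+/LSL*, beside the 3.58% of all genes. *Gfap* stood at 52.6 to 87.7 CPM there against 98.1 to 191 in *Kmt2a+/LSL*, *Aqp4* at 14.2 to 18.0 against 24.3 to 44.3, and *Gjb6* at 0 against at most 0.187. The summed level of the 7 was 3111 to 4229 CPM against 3565 to 5016, with overlap, and none of the 7 passed an adjusted p of 0.05 by edgeR's quasi-likelihood test, with 1 (*Gjb6*) at an unadjusted p under 0.05. Their part in the *Adamts5* and *Acan* values was not tested.

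The 2 genotypes without the cassette, *nes-cre+/-* and *Kmt2a+/+*, differ in the transgene. None of the 9 members other than *Acan* passed by edgeR's quasi-likelihood test, DESeq2 or limma-voom, or had an unadjusted p under 0.05 by any of them, beside 0% and 1.4% of all 17076 genes by edgeR. None of the 9 was free of overlap, beside 1.53% of all genes with lower and 2.82% with higher values. *Acan* was wholly lower here too, as given above. The log2 differences of the 9 ran from −2.01 for *Tnr* to 0.28 for *Adamts4*. Neither end was steady, since *Tnr* reached −0.21 over the other settings and *Adamts4* turned to −0.069 without *Kmt2a+/+* replicate 1. With that library left out, *Ncan*, *Bcan* and *Tnr* lay wholly lower in *nes-cre+/-*, as did 13.6% of all genes, and none of the 9 lay wholly higher, as did 15.7%.

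In the contrast of the 2 genotypes with nestin-Cre, where all 10 members were tested, none passed by edgeR's quasi-likelihood test, DESeq2 or limma-voom, beside 0% of all genes by edgeR. *Acan* and *Adamts5* had an unadjusted p under 0.05 by each of the 3 tools, beside 1.11% of all genes by edgeR. The same 2 members were wholly higher in *nes-cre+/-Kmt2a+/LSL*, beside 3.1% of all genes, and none was wholly lower, beside 3.58%. The libraries of the other 8 members overlapped. *Acan* was also picked with the rescue comparison, so its values here are no independent support.

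Finally, tests across the whole design gave no call among the 9 members other than *Acan*. For the difference between the effect of the cassette with and without nestin-Cre, 0 members and 0% of genes passed by edgeR's quasi-likelihood test, and 0 members passed by DESeq2 or limma-voom. *Adamts5* was the one member with an unadjusted p under 0.05 by each of the 3 tools, beside 1.73% of all genes by edgeR. For any difference among the 4 genotypes, 0 members and 0% of genes passed by edgeR, and 0 members passed by DESeq2 or limma-voom. No member had an unadjusted p under 0.05 by edgeR or limma-voom in that test, where 1.15% of all genes did by edgeR, and DESeq2's likelihood ratio test found 1. Over all genes, where edgeR called 0 in each of these 5 later tests, limma-voom also called 0, and DESeq2 called 6 in the rescue comparison, 3 between the genotypes without the cassette, 3 between those with nestin-Cre, 10 for the difference of effects and 5 for any difference.

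**Figure D4:**
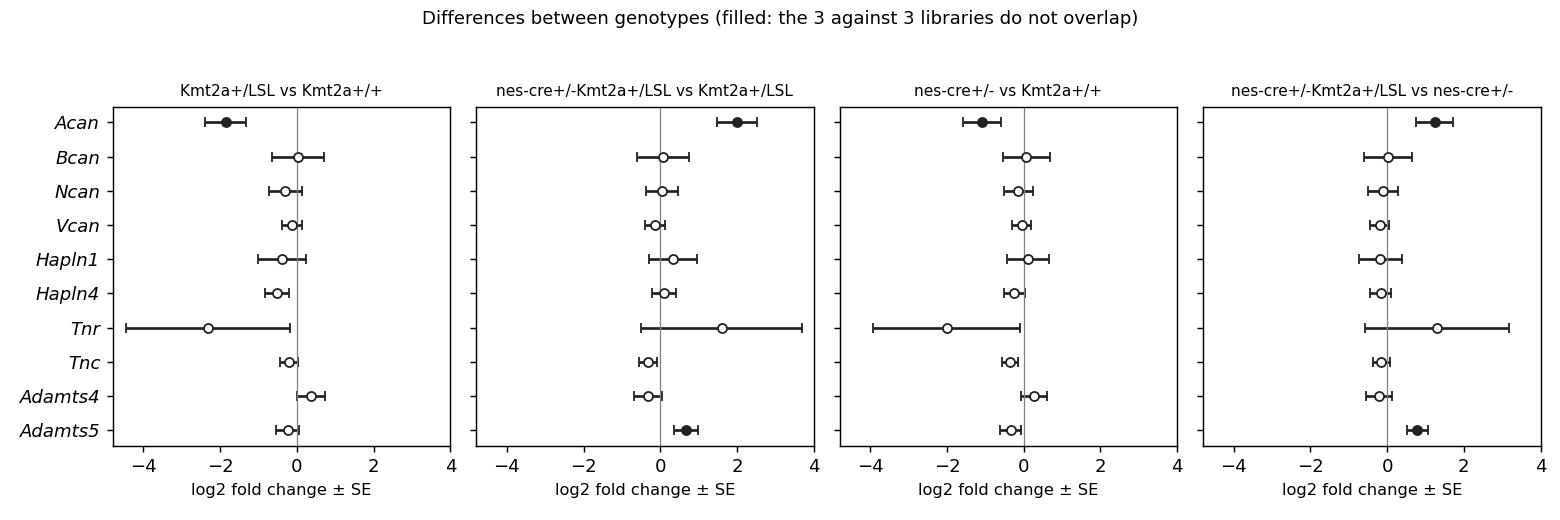
Log2 fold change with its SE from the edgeR fit for the 10 matrix genes in 4 comparisons of genotypes, with filled points where the 3 libraries of one genotype all lie on one side of the 3 of the other. *Acan* is filled in all 4 (−1.86, 2.00, −1.09 and 1.24) and *Adamts5* in the 2 that involve *nes-cre+/-Kmt2a+/LSL* (0.67 and 0.78), and the bars of *Tnr* are the widest.

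*Kmt2a+/+* replicate 1 moved several members at once. Against the other 2 *Kmt2a+/+* libraries, *Bcan* was lower there by 11.0 times, *Ncan* by 2.88 times and *Adamts4* by 2.70 times, and *Tnr* had no counts. *Vcan*, *Hapln1*, *Hapln4*, *Tnc*, *Adamts5* and *Acan* were not lower, with log2 differences of 0.37 to 0.77. The GC content of the transcripts moved with the library too. Genes were split by GC content into 5 groups of like size, and those with a mean count of at least 50 were used. Genes of the lowest group (up to 44.1%) had a median log2 difference of 1.12 there, and those of the highest (from 55.8%) one of −1.92. *Bcan* transcripts, at 60.7% GC, lay at −3.45, below that median, *Hapln4* at 57.0% was higher than 98.9% of the genes of the same group, and *Tnr* at 47.7% was lower than all but 0.124% of the genes in the same group. The summed level of the 6 oligodendrocyte precursor markers was 1143 CPM in that library, under the 3395 to 5526 of the other 11, and that of the 5 oligodendrocyte markers measured of 6 listed was 138 CPM, under their 285 to 443. The 10 neuron markers summed to 1924 CPM, the highest of the 12 libraries, and *Map2* alone gave 1874 CPM of it. Other neuron markers went both ways there, with *Snap25* at its highest (16.2 CPM) and *Tubb3* at its lowest (3.03 CPM) of the 12 libraries. The summed level of 8 progenitor markers was 13079 CPM, over the 5657 to 8233 of the others. *Fabp7* carried most of that excess, with 8960 CPM there, and the other 7 progenitor markers summed to 4119 CPM, against 3012 to 3744 in the other 11 libraries. In *nes-cre+/-Kmt2a+/LSL* replicate 1, set against the rest of its genotype, the GC groups ran the same way, from 0.41 in the lowest to −0.43 in the highest. It held the lowest *Bcan* (732 CPM) and *Ncan* (2641 CPM) outside *Kmt2a+/+* replicate 1, and no *Tnr* count. The part of GC content and of the cell types above in the *Bcan*, *Ncan* and *Tnr* values was not tested.

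**Figure D5:**
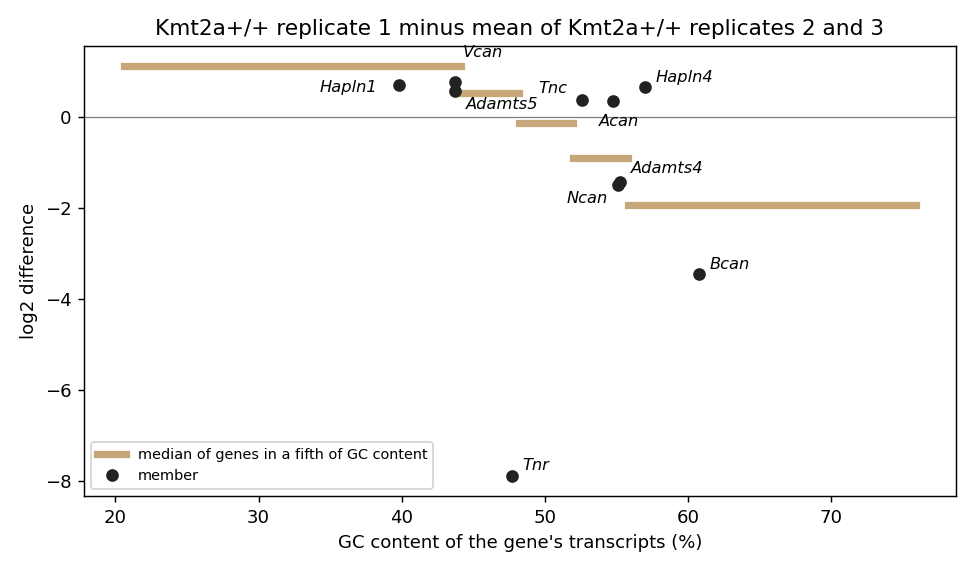
Log2 difference between *Kmt2a+/+* replicate 1 and the mean of *Kmt2a+/+* replicates 2 and 3 (y axis) against the GC content of each gene's transcripts in percent (x axis), for the 10 matrix genes (points). Bars give the median of genes with a mean count of at least 50 in each of 5 groups by GC content. The medians fall from 1.12 to −1.92 with GC content, *Bcan* lies at −3.45, and the *Tnr* value of −7.88 depends on the prior count added to a count of 0.

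Across the 12 libraries, the genes most like *Acan* were *Fat4* (Pearson r = 0.827, Spearman rho = 0.832), *Stk32b* (0.824, 0.741), *Itpr2* (0.793, 0.818), *Mylip* (0.793, 0.678) and *Fkbp11* (0.786, 0.783), out of 13671 genes with a mean count of at least 10. Among those most like *Ncan* were *Kcnf1* (0.974, 0.937), *Hivep1* (0.958, 0.965), *Asrgl1* (0.952, 0.937) and *Tenm4* (0.951, 0.881). The values describe log2 CPM over libraries that share genotype, depth and base composition. Between members, the correlation of *Bcan* with *Adamts4* was 0.847 over 12 libraries and 0.260 without *Kmt2a+/+* replicate 1, and that of *Bcan* with *Hapln4* was −0.720 and −0.221.

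The wider matrix pathway was read from 5 further lists. They were 10 link protein and hyaluronan genes, 20 chondroitin sulfate synthesis genes, 12 other matrix proteases and inhibitors, 11 other proteoglycans and tenascins, and 19 receptors and binding partners, counted as tested in the first comparison. Between *Kmt2a+/LSL* and *Kmt2a+/+*, none of these 72 genes passed an adjusted p of 0.05 or had an unadjusted p under 0.05 by edgeR's quasi-likelihood test, DESeq2 or limma-voom. In the first comparison the median log2 differences were 0.03, 0.06, −0.12, 0.01 and −0.06 in the order of the lists, beside −0.01 for all genes. In the rescue comparison none passed by these 3 tools, and edgeR, DESeq2 and limma-voom gave 1, 2 and 1 of the 72 genes an unadjusted p under 0.05, beside 1.1%, 1.20% and 1.26% of all genes. The gene by edgeR was *Mmp2*, a gelatinase gene, named after its value was seen, with a log2 difference of 1.21 (SE 0.50). Between the genotypes with nestin-Cre, and between those without the cassette, 73 genes of the lists were tested, and 0 passed and 0 had an unadjusted p under 0.05 by the edgeR quasi-likelihood test.

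A pair of genes from these lists had libraries that did not overlap in the first comparison and also did not overlap, on the opposite side, in the rescue comparison, as *Acan* did. Of all genes, 0.871% did so, and the comparisons share the *Kmt2a+/LSL* libraries, so that low or high values there move both. *Adamts9*, a protease that cuts versican and aggrecan, stood at 66.7, 62.7 and 66.9 CPM in *Kmt2a+/+*, 53.5, 62.5 and 59.3 in *Kmt2a+/LSL*, and 74.7, 72.9 and 69.4 in *nes-cre+/-Kmt2a+/LSL*. Its log2 differences were small, at −0.18 (SE 0.16) and then 0.31. *Ust*, which sulfates uronic acid in chondroitin and dermatan sulfate, stood at 27.4, 35.4 and 36.8 CPM, 43.6, 40.9 and 38.3 CPM, and 32.0, 34.8 and 37.5 CPM in the same order of genotypes. Its log2 differences were 0.29 (SE 0.19) and −0.23. In *nes-cre+/-*, *Adamts9* at 70.0, 59.2 and 56.4 CPM and *Ust* at 41.9, 40.0 and 35.1 CPM both overlapped *Kmt2a+/+* and *Kmt2a+/LSL*.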

How the data were processed

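The values the authors deposited were estimated counts of RNA-Seq reads per gene, written as whole numbers after pseudoalignment with kallisto 0.48.0 to the mm10 (GRCm38) transcriptome, import with tximport and naming of genes with biomaRt. Ensembl identifiers were matched to symbols in GENCODE M21, which named 99.0% of the 18911 genes. Strandedness of the libraries was not given in the sources used here.

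A gene was kept when its counts summed to over 10 and at least 2 libraries had any, and such genes were tested with edgeR 4.0.16 in R 4.3.3, with TMM scaling, the quasi-likelihood F-test and Benjamini-Hochberg adjustment over all genes tested. Comparisons of *Kmt2a+/LSL* were fitted on the 9 libraries without *nes-cre+/-* (16655 genes), as in the study's design, and the others on all 12 (17076 genes). CPM values used TMM-scaled totals of all 12 libraries, and RPKM divided these by the length of the longest coding transcript. Libraries did not overlap where all 3 CPM values of one genotype exceeded all 3 of the other. A count of 0 was taken to allow up to 3 counts, and Poisson intervals (95%) and this limit cover counting error only.

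The members, the lists and the tests were chosen with earlier results of these data known. Fold changes were given for *Acan* and for members without overlap or with an unadjusted p under 0.05 in a comparison. Beyond this rule, those of *Ncan*, *Bcan*, *Vcan* and *Tnr*, the marker genes, the *Tnc* values of a further pair of genotypes, and the library-level remarks, were chosen after their values were seen. DESeq2 (1.42.0 here too), limma-voom (limma 3.58.1), other filters, scalings and fits, and each library left out were the alternatives. An offset for GC content (loess, span 0.5) was added after the data were seen. The edgeR fit was also run on simulated counts with known changes, whose outcome is not given here and on which no result rests. The replicate numbers were not taken to pair the libraries. One gene among those most like *Ncan* is not reported here.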

Additional observations from a re-analysis of the deposited data

Results flagged for a closer look

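The *Acan* difference between genotypes with and without the LSL allele took opposite directions in the absence and presence of nestin-Cre. All 3 *Kmt2a+/LSL* libraries lay below all *Kmt2a+/+* libraries (log2 fold change −1.86), and all 3 *nes-cre+/-Kmt2a+/LSL* libraries lay above all *nes-cre+/-* libraries (log2 fold change 1.24). Whether the 2 differences differ was not tested, since *Acan* was selected on the first of them.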

How the results depend on the processing

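Members called stayed at 0 in all 6 tests under each alternative run: DESeq2 size factors, DESeq2, limma-voom, no filter, at least 10 counts in every library, other libraries in the fit, an offset for GC content, and each library left out (0 to 0). With the replicate number as a block they also stayed at 0, and the counts of members with an unadjusted p under 0.05 moved by at most 1. Same-numbered libraries of different genotypes had a mean correlation of 0.0844 in their deviations from the group means (18 pairs, −0.0717 to 0.416). For libraries of different number it was lower, at −0.0407 (36 pairs, −0.363 to 0.288). The labels do not say whether equal numbers share a litter or batch, so the libraries were not paired, and a shared batch was not tested. The order of levels per length held for 4 of 10 members with the median transcript length and for all 10 without *Kmt2a+/+* replicate 1 (10 to 10), and the first change follows from the length alone. The results tracked were the counts of members called, the order of levels and the members' fold changes printed in the text. The *Adamts5* fold change between *Kmt2a+/LSL* and *Kmt2a+/+* was not among them. Over these results, 420 alternative values kept their direction and side of the threshold, 5 reversed, none of them a call, and 1, the order of levels with the median length, moved. Between *Kmt2a+/LSL* and *Kmt2a+/+*, *Bcan* (0.03) became −0.49 without *Kmt2a+/+* replicate 1 and −0.13 without *Kmt2a+/LSL* replicate 3, *Vcan* (−0.12) became 0.19 without *Kmt2a+/+* replicate 1, and *Ncan* (−0.30) became 0.16 without *Kmt2a+/+* replicate 2. Between *nes-cre+/-* and *Kmt2a+/+*, *Adamts4* (0.28) became −0.069 without *Kmt2a+/+* replicate 1. Over the left-out libraries *Bcan* ranged from −0.49 to 0.54 *Ncan* from −0.65 to 0.16, *Vcan* from −0.34 to 0.19 and *Adamts4* from −0.069 to 0.60 in these comparisons, and the cause was not tested. *Acan* kept its sign in each alternative that kept the gene, from −2.21 to −1.66, 1.80 to 2.35, −1.49 to −0.90 and 1.05 to 1.64 over the left-out libraries in the 4 comparisons, in the order first described, and was not tested with at least 10 counts in every library. *Adamts5* kept its sign too, between 0.49 and 0.77 against *Kmt2a+/LSL* and between 0.60 and 0.88 against *nes-cre+/-*. *Tnr*, with counts of 0, ranged from −8.27 to −1.48 between *Kmt2a+/LSL* and *Kmt2a+/+* over the left-out libraries, and from −2.09 to −0.21 between *nes-cre+/-* and *Kmt2a+/+* over the other settings. *Acan*, with 3 to 22 counts per library, is limited by depth.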
